A study of Homo sapiens with 18 samples.

Results

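The comparison described here sets HEK293 cells given flagellin of the probiotic Escherichia coli Nissle (EcN) for 60 min against mock-treated cells at 60 min. HEK293 is a human embryonic kidney line, and every culture of the study, mock included, overexpressed murine TLR5. The members were the 3 EcN arrays and the 3 mock arrays with the 60 min label in their titles, each group lettered A, B and C, out of 18 arrays in all. Flagellin of Salmonella Typhimurium SL1344 (ST) at 60 min, and EcN, ST and mock at 120 min, made up the other 4 groups of 3 arrays. The flagellin dose corresponded to a multiplicity of infection of 10, cells were at passage 7 after growth in heavy, medium or light amino acid media, and 100 ng of RNA entered each labelling reaction. The sources used here do not say which array carried which amino acid label. Beyond calling the letters biological replicates, they do not say whether these were separate cultures. The p-values therefore measure the spread between arrays, pooled over the groups of all 18. The transgene makes these cells a model of TLR5 signalling in a kidney line, not of intestinal epithelium.

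Levels are log2 values from Affymetrix Human Gene 2.1 ST arrays, normalised by the authors with RMA (robust multi-array average). Of 53617 transcript clusters, 23871 carried exactly 1 gene symbol, and 17117 of those lay above the array median on at least 3 of the 18 arrays. Where several clusters of a gene passed, the one with the highest mean over all arrays stood for it, which left 16111 genes tested. A gene was called where its adjusted p was under 0.05 in limma's moderated test with Benjamini-Hochberg adjustment over all 16111 genes. The number of arrays, 3 a group, limits the precision, and in bulk RNA fewer responding cells and less RNA per cell cannot be told apart.

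TLR5 is the cell-surface receptor for bacterial flagellin. It signals through MyD88 and IRAK kinases to NF-kB and to the MAP kinases, which in turn switch on chemokines such as CXCL8, feedback inhibitors such as NFKBIA and TNFAIP3, and immediate-early transcription factors such as EGR1 and FOS. Interferon-stimulated genes are a separate set, switched on through a DNA element called ISRE after interferon is sensed, and they encode antiviral proteins.

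Several arrays went against what their labels would lead one to look for, and this bears on everything below. NFKBIA stood at 8.28, 8.30 and 10.15 on EcN arrays A, B and C, against 8.82, 8.62 and 8.59 on the mock arrays at 60 min. On the mock arrays at 120 min it stood at 10.83, 8.39 and 8.22. The NF-kB targets NFKBIA, TNFAIP3, CXCL8 and NFKBIZ were thus high on EcN array C alone of the 6 compared arrays, and high on mock array A at 120 min, which had received no flagellin per its label. Levels on the mock arrays at 120 min are therefore given beside the main values for part of the genes. Where they are not given, a difference at 60 min should not be read as clear of the mock arrays at 120 min. The markers of the line were present: of 11 HEK293 markers on the array, 10 were above the array median on all 18 arrays. Of 10 leukocyte markers on the array, PTPRC, CD3E, ITGAM, LYZ and NKG7 were above it on fewer than 3 arrays and CD14, CD68, CD74 and FCER1G on all 18, and the mean level of the leukocyte list ran from 2.83 to 2.91 on EcN arrays against 2.78 to 3.0 on mock arrays. Of 9 intestinal epithelium markers 5 (CDX1, CDX2, LGR5, EPCAM and CDH17) were above the median on all 18 arrays, and FABP1 and KRT20 on fewer than 3. Human TLR5 stood at 3.91, 3.86 and 3.93 with EcN and 4.02, 3.60 and 3.32 with mock, a log2 difference of 0.25 ± 0.18 (SE, adjusted p = 0.402 by limma), and the array has no measure of the murine transgene analysed here.

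At 60 min 1039 genes were called, or 6.45% of those tested: 496 were higher with EcN (3.08%) and 543 were lower (3.37%). At least a 2-fold difference was reached by 41 of the genes that rose and 16 of those that fell. The levels of the 3 EcN and the 3 mock arrays did not overlap for 1038 of the 1039 called genes (99.9%), beside 5142 genes (31.9%) among all tested. With each array centred on its median, 402 were higher and 727 lower. The median log2 fold change of all genes was 0.01. Among the genes called, the interferon-stimulated genes held 9 of the 15 largest rises, with IFI44L, IFIT3, OAS2 and ISG15 in the first 4 places. EGR1 and 4 more of the 28 measured immediate-early factors, the sterol regulator INSIG1, 8 of 109 small nucleolar RNAs and the HLA genes HLA-B, HLA-C and HLA-E also rose. The receptors GALR2 and P2RY2, the histone methyltransferase SETD1B and its partner HCFC1, the TGF-beta inhibitor SMAD7 and the antiviral adaptor MAVS fell. Of the NF-kB list 0 members were called by limma, which does not show that they were unchanged.

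**Figure D1:**
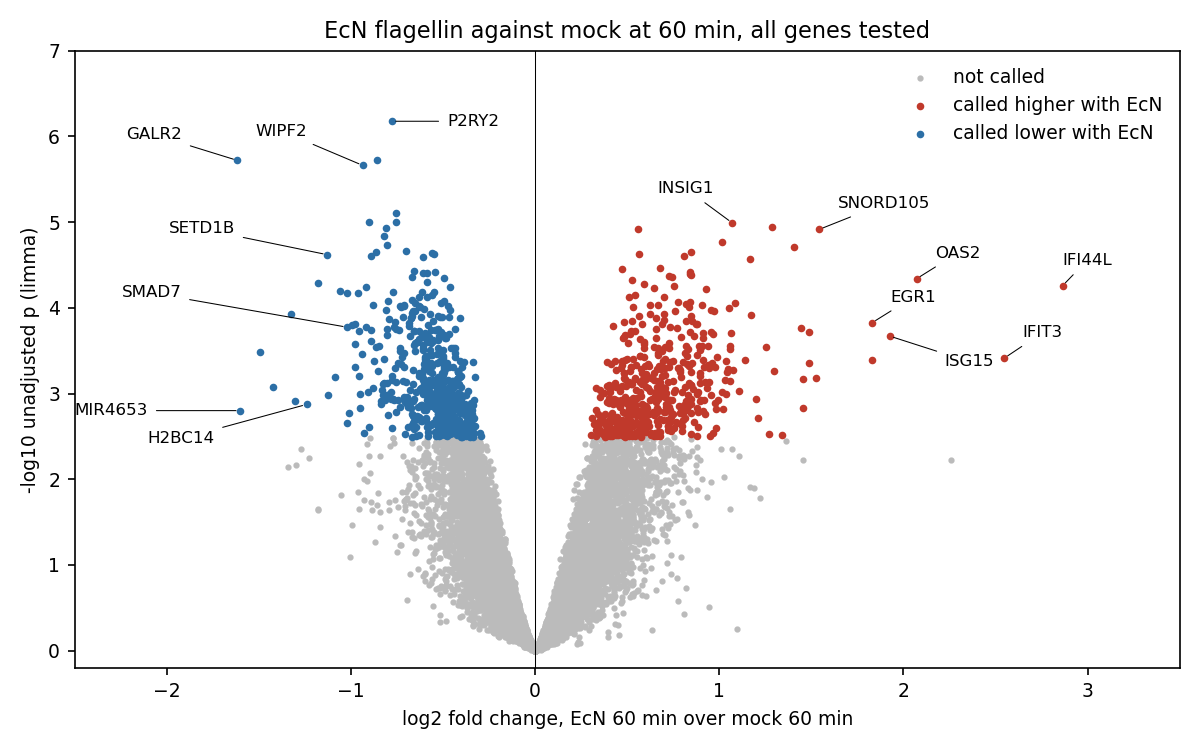
Log2 fold change of EcN over mock at 60 min (horizontal axis) against -log10 of the unadjusted limma p (vertical axis) for the 16111 genes tested, with the 496 genes called higher in red, the 543 called lower in blue and 14 genes labelled. IFI44L lies farthest to the right and GALR2 farthest to the left among the called genes.

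How many genes passed depended strongly on single arrays, and all counts here should be read with that. Leaving out EcN array A left 241 called genes, leaving out EcN B left 0 and leaving out EcN C left 81. Leaving out mock array A left 671, mock B left 7 and mock C left 3. Over the same 6 leave-outs, 3143 to 3814 genes had an unadjusted p under 0.05, against 4002 (24.8%) with every array, of which 2044 (12.7%) were higher and 1958 (12.2%) lower. All 1039 called genes kept their direction and an unadjusted p under 0.05 in each of the 6 leave-outs. For the 1038 whose groups do not overlap, leaving out an array could not change the direction. The genes were also chosen by a small p on these same arrays, so this does not measure their stability. None stayed past the adjusted threshold in all 6. P2RY2 and OTUD6B came closest, called in 5 of the 6.

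**Figure D2:**
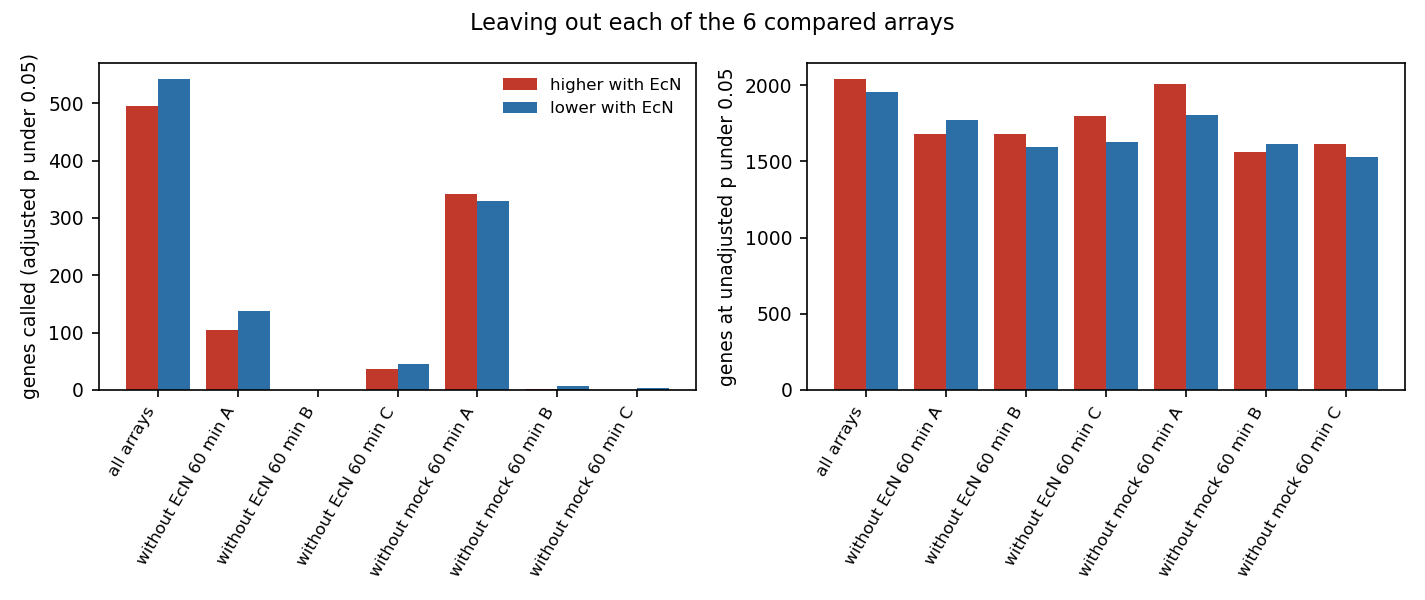
Number of genes called at an adjusted p under 0.05 (left) and at an unadjusted p under 0.05 (right), higher (red) and lower (blue) with EcN, with all arrays and without each of the 6 compared arrays. The adjusted counts run between 0 and 671 in the leave-outs, while the unadjusted counts run between 3143 and 3814 in sum.

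The interferon-stimulated list had the largest share of calls among the lists described here. Of 57 listed genes 53 were measured, 22 of them were called higher (41.5%, beside 3.08% of all genes) and 0 lower, and the median log2 fold change was 0.46 beside 0.01 over all genes. The log2 fold change was above 0 for 51 of the 53, beside 51.7% of all genes, PML and ZC3HAV1 being the 2 below it. The EcN arrays lay above all mock arrays for 34 of the 53, beside 16.7% of all genes. Of the 4 listed genes without a value, DDX60 and PARP14 were below the filter, and the other two are not analysed here. Leaving out EcN array A kept 19 of the list's members past the threshold and leaving out mock A kept 15, but leaving out EcN B, EcN C, mock B or mock C left 0.

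IFI44L, an interferon-induced protein of the antiviral set, stood at 4.96, 6.26 and 5.98 on EcN arrays A, B and C, against 3.15, 2.81 and 2.65 on mock arrays A, B and C. The groups were more than 1 log2 unit apart at their nearest arrays, and the fold was 7.28 (log2 2.86 ± 0.53 SE, adjusted p = 0.0186 by limma). IFIT3, which helps block translation and replication of viral RNA, was at 4.72, 5.81 and 5.47 with EcN and at 2.94, 2.45 and 2.96 with mock, a 5.84-fold rise (adjusted p = 0.0246 by limma). OAS2, one of the synthases that activate RNase L, was at 3.81, 5.09 and 4.98 with EcN and at 2.58, 2.44 and 2.64 with mock, a 4.20-fold rise (adjusted p = 0.018 by limma). In all 3 genes array A was the lowest EcN array and still lay above every mock array.

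ISG15, the ubiquitin-like modifier that interferon induces, was at 4.22, 5.91 and 5.79 with EcN, against 3.17, 3.19 and 3.79 with mock. EcN array A was only 0.43 above mock array C, while B and C were more than 1.9 above it. The fold over the group means was 3.80 (log2 1.92 ± 0.41 SE, adjusted p = 0.0199 by limma), and the log2 value lay between 1.62 and 2.47 when single arrays were left out. UBE2L6, the enzyme that conjugates ISG15 to its targets, stood at 5.27, 5.83 and 5.54 with EcN and 4.38, 3.72 and 4.17 with mock, a 2.74-fold rise. IFI6, a mitochondrial and endoplasmic reticulum protein, was among the brightest of the group at 9.75, 10.59 and 10.49 with EcN and 8.69, 8.73 and 9.07 with mock. Mock arrays A, B and C at 120 min had UBE2L6 at 3.90, 5.39 and 5.38 and IFI6 at 8.80, 10.04 and 9.76.

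OAS3, another synthase, stood at 6.99, 8.48 and 8.53 with EcN, against 6.64, 6.37 and 6.52 with mock. RSAD2, the antiviral enzyme viperin, had 2.95, 4.18 and 4.47 with EcN and 2.56, 2.41 and 2.06 with mock. IFI44 had 3.05, 4.53 and 4.33 with EcN and 2.54, 1.61 and 2.27 with mock. In each of these genes array A lay within 0.6 of the highest mock array, and B and C lay well over 1 log2 unit above it. OAS1 followed the same shape, with 2.89, 4.67 and 4.14 for EcN and 2.69, 2.13 and 2.51 for mock, and was not called (log2 1.46 ± 0.46 SE, adjusted p = 0.0659 by limma). IFI27 overlapped, at 3.35, 5.11 and 5.12 with EcN and 3.61, 3.38 and 2.93 with mock.

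Array A was the lowest of the EcN arrays for 46 of the 53 measured list members and for 21 of the 22 called ones, TRIM21 being the exception, beside 31.1% of all genes and 31.2% of all genes called higher. Relative to the mock mean, the median difference of the list was 0.35 on EcN array A, 0.63 on B and 0.63 on C. The 10 genes in which B and C exceeded A the most were ISG15, IFI44, RSAD2, OAS3, OAS1 and IFI27 of the list, the NF-kB targets NFKBIZ, CXCL8 and CXCL1, and MTVR2, given as a description since these values chose them.

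**Figure D3:**
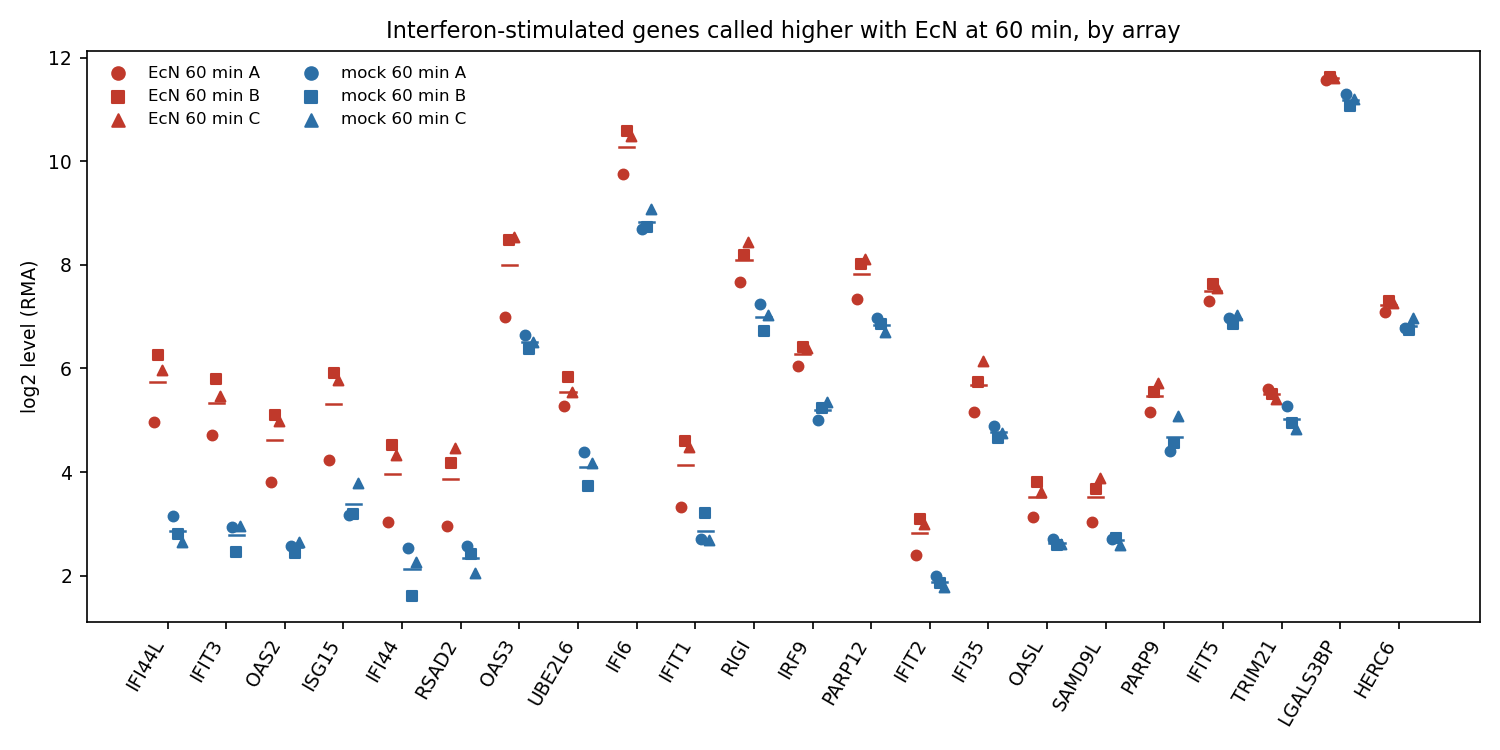
Log2 RMA levels of the 22 interferon-stimulated genes called higher with EcN at 60 min, ordered by fold change, with EcN arrays in red left of mock arrays in blue, replicate letters as symbols and group means as bars. EcN array A (circle) is the lowest EcN array for 21 of the 22 genes.

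The ISG15, IFIT3 and IFI44L promoters are shown because they carry the core of the ISRE, the element named above. Sequences are from RefSeq on GRCh38.p14, run 5′ to 3′ on the gene's strand, end upstream of the annotated start, and have the core (GAAA, then 2 bases of any kind, then GAAA) or its reverse complement in capitals. ISG15 lies at chr1:1013364-1013419 (+), IFIT3 at chr10:89327821-89327904 (+) and IFI44L at chr1:78620264-78620404 (+).
ISG15: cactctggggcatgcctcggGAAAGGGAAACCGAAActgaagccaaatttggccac
IFIT3: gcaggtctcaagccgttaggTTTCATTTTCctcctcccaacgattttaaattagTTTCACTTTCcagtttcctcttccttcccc
IFI44L: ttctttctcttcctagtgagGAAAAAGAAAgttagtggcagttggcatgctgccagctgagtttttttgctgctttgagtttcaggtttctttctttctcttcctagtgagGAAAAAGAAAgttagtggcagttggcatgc
In ISG15 the 2 matches overlap, with the first beginning 113 bases before the start. In IFIT3 the matches begin 156 and 122 bases before it, and in IFI44L the 2 matches, 164 and 73 bases before it, sit in copies of a repeat.

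Searched on both strands from 250 bases before to 50 after each start, the core was found in 27 of 41 promoters of the interferon-stimulated list (65.9%), against 2.69% of 12157 promoters of genes tested. Within the list it was found in 11 of 19 promoters of called members (57.9%) and in 16 of 22 of members not called (72.7%). The shares over whole calls were 5.47% for genes called higher (21 of 384 promoters) and 3.10% for genes called lower. Of those 21 promoters, 11 are the called list members just given, so the 5.47% is not separate from the list. OAS2 had no entry in the promoter table, and RSAD2 and HLA-B had no match in this window.

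Levels of the same genes on the other arrays put the 60 min difference in context. On the 3 mock arrays at 120 min IFI44L stood at 2.25, 4.84 and 4.83 and IFIT3 at 2.12, 4.72 and 5.12, so mock arrays B and C at 120 min came near the EcN levels at 60 min without flagellin per their labels. ISG15 on those arrays stood at 3.94, 4.15 and 4.28 and OAS2 at 2.62, 3.47 and 2.86, below EcN arrays B and C at 60 min. EcN array A had ISG15 at 4.22, so mock array C at 120 min lay above it and mock B close below it. OAS2 stood at 3.81 on EcN array A, above the mock arrays at 120 min. With ST flagellin at 60 min ISG15 was at 6.41, 6.50 and 6.62, all 3 above the EcN arrays at 60 min. The log2 difference of EcN minus ST at 60 min for ISG15 was -1.20 ± 0.41 (SE, adjusted p = 0.401 by limma).

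Upstream of these genes are the interferon ligands and receptors, of which 18 were listed and 10 measured. IFNAR1, a chain of the type I interferon receptor, was the 1 called (10.0% of the list, beside 6.45% of all genes), lower at 7.29, 7.18 and 7.18 with EcN against 7.70, 7.57 and 7.71 with mock (adjusted p = 0.025 by limma). IFNL1, a type III interferon, overlapped between the groups at 2.52, 2.93 and 2.45 with EcN and 2.27, 2.65 and 1.96 with mock, near the array medians of 2.27 to 2.32. IFNB1, 5 IFNA genes, IFNE and IFNK were below the filter.

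Among 13 measured signalling factors 2 were called (15.4%, beside 6.45% of all genes): IRF9 rose and SOCS3 fell. IRF9, a transcription factor of interferon signalling, was at 6.05, 6.41 and 6.39 with EcN, against 5.01, 5.25 and 5.35 with mock (2.12-fold, adjusted p = 0.0186 by limma). SOCS3, a feedback inhibitor of cytokine receptors, was at 3.43, 3.40 and 3.35 with EcN and 3.94, 3.77 and 4.06 with mock. IRF7, which amplifies interferon production, had 5.61, 6.18 and 6.61 with EcN and 5.75, 5.58 and 5.77 with mock and was not called. USP18, which dampens interferon receptor signalling, had a log2 fold change of 0.14. At 120 min the mock arrays had IRF9 at 5.22, 6.17 and 6.16 and SOCS3 at 3.47, 3.22 and 3.67.

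Of the 9 measured cytosolic nucleic acid sensors 2 were called (22.2%, beside 6.45% of all genes): RIGI rose and MAVS fell. RIGI, a sensor of viral RNA, was at 7.66, 8.20 and 8.44 with EcN, against 7.24, 6.72 and 7.02 with mock (2.15-fold, adjusted p = 0.031 by limma). MAVS, the mitochondrial adaptor that RIGI signals through, was at 7.36, 7.33 and 7.50 with EcN and 8.01, 8.05 and 8.23 with mock (log2 -0.70 ± 0.12 SE, adjusted p = 0.0159 by limma). The sensor and its adaptor thus moved in opposite directions, each with no overlap between groups, as for 31.9% of all genes. Mock arrays A, B and C at 120 min had RIGI at 7.21, 7.46 and 7.76 and MAVS at 8.01, 7.94 and 7.49.

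Genes of class I antigen presentation were called higher in 6 of 19 measured cases (31.6%, beside 3.08% of all genes) and lower in 0, with a list median of 0.05 beside 0.01 over all genes. HLA-B, which presents peptides to T cells, was at 4.73, 5.20 and 5.26 with EcN, against 4.28, 4.24 and 4.11 with mock (1.81-fold, adjusted p = 0.0247 by limma). HLA-E, a ligand of natural killer cell receptors, was at 8.09, 7.73 and 7.71 with EcN and 7.12, 7.04 and 7.15 with mock, with array A the highest EcN array here. B2M, the shared light chain, rose 1.44-fold, HLA-C 1.27-fold, the peptide transporter subunit TAP1 1.26-fold and the peptidase ERAP2 1.39-fold. The immunoproteasome subunits PSMB8, PSMB9 and PSMB10 had log2 fold changes of -0.30, -0.04 and -0.10 and none was called. HLA genes are near-identical in parts, so signal may be shared between their probes.

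Of 28 measured immediate-early factors 5 rose (17.9%, beside 3.08% of all genes) and 0 fell, and the list median was 0.32 beside 0.01 over all genes. EGR1, a zinc finger factor that MAP kinase signalling switches on within minutes, stood at 10.78, 10.51 and 11.40 on EcN arrays A, B and C, against 9.27, 9.04 and 8.89 on the mock arrays. The rise was 3.55-fold (log2 1.83 ± 0.37 SE, adjusted p = 0.0195 by limma), and array C was the highest. EGR3, a related factor, was at 5.85, 5.89 and 6.26 with EcN and 5.25, 4.62 and 4.52 with mock. FOS, a part of the AP-1 complex, was at 6.33, 6.30 and 7.80 with EcN and 5.72, 5.21 and 5.14 with mock, so A and B stood closer to mock than C did. IER5 rose 1.84-fold and KLF6 1.69-fold. At 120 min, mock arrays A, B and C had FOS at 5.99, 6.42 and 6.31 and EGR3 at 5.51, 6.53 and 5.70. IER5 stood at 6.36, 6.55 and 7.56 there and KLF6 at 7.21, 7.55 and 7.94, so some mock arrays reached EcN levels of 60 min.

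FOSB, the paralog of FOS, had the largest fold change of the list at log2 2.26 ± 0.71 (SE), with levels of 7.57, 6.94 and 8.16 with EcN and 5.96, 5.11 and 4.84 with mock, and was not called (adjusted p = 0.0664 by limma). ATF3, a stress-induced factor, was at 6.20, 6.23 and 7.12 with EcN and 5.36, 5.47 and 5.40 with mock and was not called either (adjusted p = 0.0623 by limma). JUN, the partner of FOS, had 9.96, 10.10 and 10.88 with EcN and 9.40, 9.68 and 9.66 with mock (adjusted p = 0.162 by limma). MYC differed by a log2 of -0.09 ± 0.21 (SE). EcN array C was the highest EcN array for 21 of the 28 factors, beside 31.8% of all genes.

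The EGR1 promoter is shown because it holds 2 CArG boxes, the sites of serum response factor, given in capitals. It lies at chr5:138465354-138465425 (+) on GRCh38.p14, from RefSeq, with the boxes beginning 105 and 83 bases before the start.
EGR1: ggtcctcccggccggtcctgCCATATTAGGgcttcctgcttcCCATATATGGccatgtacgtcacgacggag
The CArG box, searched by its name's consensus, was found in 2 of 19 promoters of the immediate-early list (10.5%), EGR1 and SRF, against 1.16% of promoters of genes tested. FOS had no match in this window and EGR3 no entry. Sites for EGR1 itself (GCGTGGGCG) were in 1.30% of the promoters of genes called higher, 0.887% of those called lower and 1.32% of those tested.

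At 120 min EGR1 stood at 8.92, 8.81 and 9.94 on the EcN arrays and at 9.80, 10.99 and 10.84 on the mock arrays, so its order between EcN and mock was the other way round there. The EcN effect at 60 min minus that at 120 min was a log2 of 3.15 ± 0.53 (SE) for EGR1, which had the smallest p of all genes in that test (adjusted p = 0.169 by limma). Across all 16111 genes 0 were called for that difference by limma, and 1936 had an unadjusted p under 0.05. The count of 0 hung on mock array A at 120 min, without which 556 genes were called. For EcN against ST at 60 min 0 genes were called by limma, with 1481 (9.19%) at an unadjusted p under 0.05 and a smallest adjusted p of 0.0729. ST and EcN at 60 min were each set against the same mock arrays, so their folds over mock share those values.

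NF-kB subunits and feedback genes gave 0 calls by limma among 17 measured. RELA, an NF-kB subunit, was the 1 with an unadjusted p under 0.05 (log2 -0.29), and the median was 0.05. Array C departed from A and B in this group: the median of C minus the mean of A and B was 0.28, beside -0.01 over all genes. TNFAIP3, the ubiquitin-editing inhibitor A20, was at 6.13, 5.95 and 8.20 with EcN, against 6.55, 6.52 and 6.54 with mock. Without array C its log2 fold change was -0.49, and with it 0.23 ± 1.10 (SE, adjusted p = 0.926 by limma). NFKBIZ, an atypical inhibitor, was at 4.24, 4.67 and 6.77 with EcN and 4.61, 4.64 and 4.52 with mock. NFKB1, the p50 precursor, was below mock on all EcN arrays at 5.08, 5.29 and 5.71 against 5.72, 5.83 and 5.76 with mock, and was not called.

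The chemokines CXCL8, CXCL1 and CXCL2 were high on the same array. CXCL8, which attracts neutrophils, stood at 2.35, 2.52 and 5.62 with EcN, against 2.16, 2.70 and 2.35 with mock, and at 7.53, 2.46 and 2.26 on the mock arrays at 120 min. CXCL1 was at 1.24, 1.66 and 3.90 with EcN and 1.65, 1.46 and 1.36 with mock. CXCL2 was at 3.61, 3.29 and 5.42 with EcN and 2.55, 3.16 and 3.77 with mock. TNF was at 2.83, 2.78 and 3.80 with EcN and 3.0, 3.04 and 2.65 with mock. In each of these 4 genes array C was the highest of the 6, and the groups overlapped.

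Of 19 measured chemokines and cytokines CCL5, a T cell attractant that interferon also induces, was the 1 called (5.26%, beside 6.45% of all genes). It stood at 3.37, 3.92 and 3.71 with EcN against 2.98, 2.93 and 2.63 with mock (1.77-fold, adjusted p = 0.0218 by limma). Among 15 other NF-kB targets GADD45A, a growth arrest gene, was the 1 called (6.67%, beside 6.45% of all genes). It stood at 7.87, 7.38 and 7.97 with EcN and 7.01, 6.73 and 7.20 with mock. IER3, an early NF-kB target, was at 7.12, 7.36 and 8.89 with EcN and 7.05, 6.98 and 6.92 with mock and was not called.

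The NFKBIA and TNFAIP3 promoters are shown because their genes separate array C from A and B, and both hold NF-kB sites (GGG, then 2 bases of any kind, then TTTCC, or the reverse complement, in capitals). From RefSeq on GRCh38.p14, NFKBIA lies at chr14:35404801-35404850 (-) and TNFAIP3 at chr6:137867172-137867233 (+), each written on the gene's strand.
NFKBIA: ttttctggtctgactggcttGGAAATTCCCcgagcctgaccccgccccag
TNFAIP3: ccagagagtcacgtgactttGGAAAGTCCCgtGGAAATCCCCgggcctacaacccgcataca
The site was found in 5 of 15 promoters of the NF-kB list (33.3%) and in 7 of 13 of the cytokine list (53.8%), against 2.07% of promoters of genes tested. CXCL8, which also separates array C, was not among these 7. Among genes called higher with EcN the site was found in 2.08%.

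Levels of genes on all arrays are plotted for the interferon, early, sterol, falling and NF-kB groups, since these follow different arrays.

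**Figure D4:**
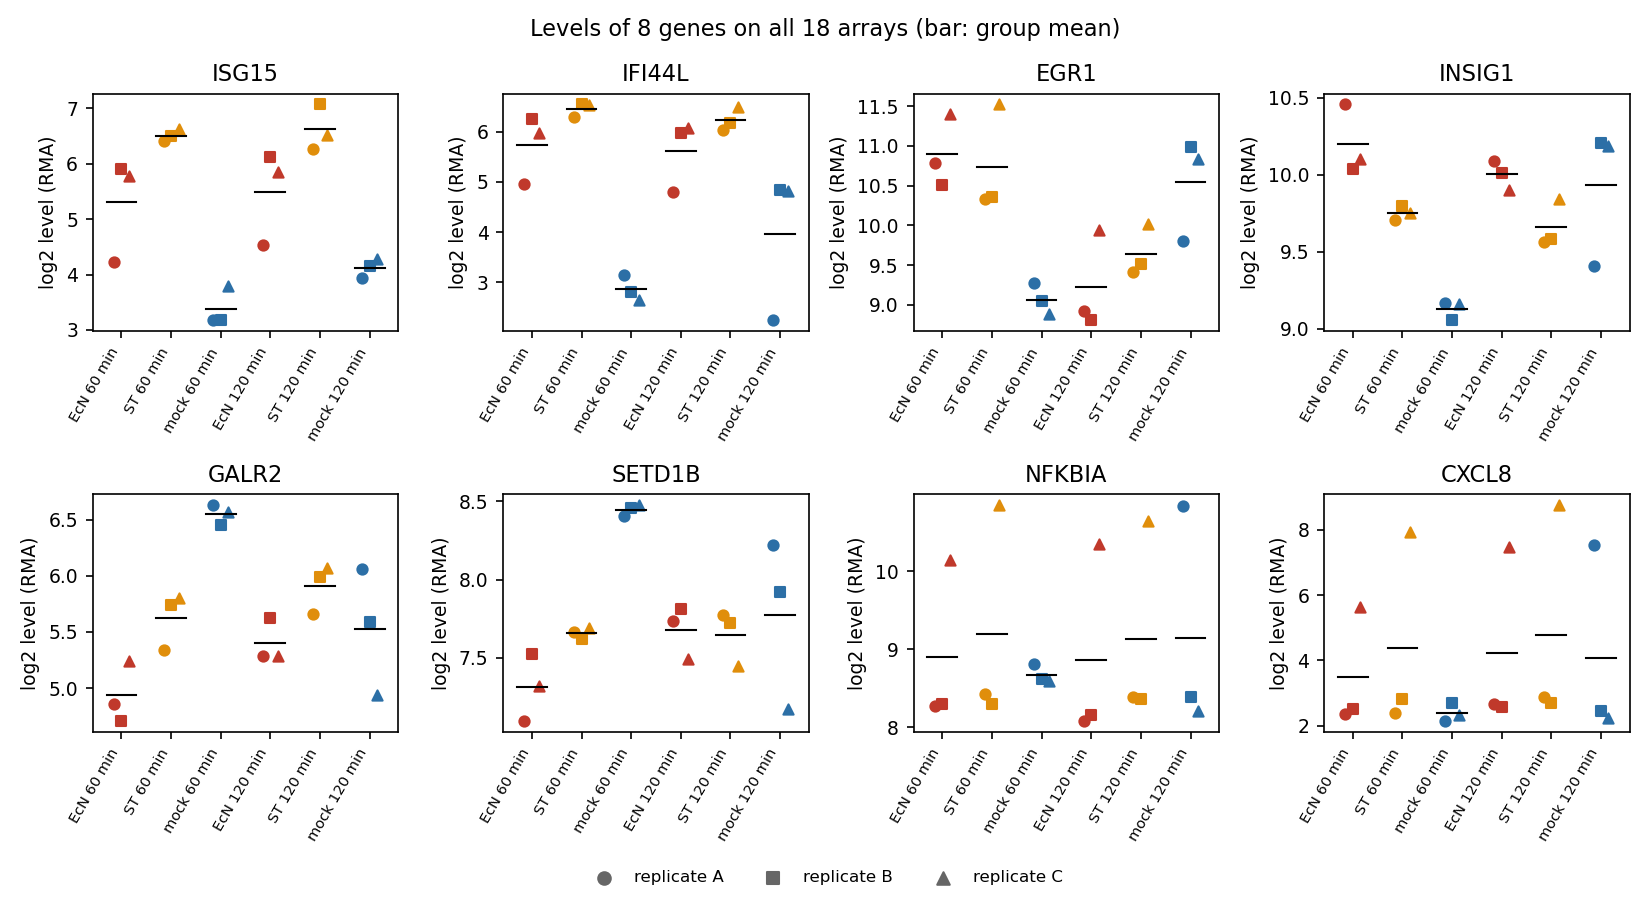
Log2 RMA levels of 8 genes in the 6 groups of the study, with EcN in red, ST in orange and mock in blue, replicate letters as symbols and group means as black bars. NFKBIA and CXCL8 are high on the flagellin arrays lettered C and on mock array A at 120 min, while ISG15, EGR1 and INSIG1 separate EcN from mock at 60 min on all 3 arrays.

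The TLR5-MyD88 pathway had 19 measured members, with PELI1 higher (5.26%, beside 3.08% of all genes) and TIRAP and IKBKG lower (10.5%, beside 3.37%). PELI1, a ubiquitin ligase acting on IRAK kinases, was at 7.54, 7.35 and 7.47 with EcN, against 6.90, 6.92 and 7.08 with mock. TIRAP, an adaptor that brings MyD88 to some receptors, was at 4.25, 4.70 and 4.38 with EcN and 5.21, 4.95 and 5.16 with mock (log2 -0.67 ± 0.16 SE, adjusted p = 0.0289 by limma). IKBKG, the regulatory subunit of the IkB kinase, was at 3.97, 3.95 and 3.52 with EcN and 4.35, 4.41 and 4.44 with mock. MYD88 itself was at 4.45, 4.76 and 4.55 with EcN and 5.0, 4.86 and 4.98 with mock and was not called (adjusted p = 0.0944 by limma).

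Of 14 measured MAP kinase feedback genes, DUSP7 and SPRED2 fell (14.3%, beside 3.37% of all genes) and 0 rose. DUSP7, a phosphatase of ERK, was at 8.67, 8.66 and 8.56 with EcN and 9.14, 9.21 and 9.24 with mock. SPRED2, an inhibitor of the Ras-ERK route, was at 5.30, 5.39 and 5.29 with EcN and 5.65, 6.0 and 6.01 with mock. In both genes the 3 EcN arrays lay below all mock arrays, as they did for 15.2% of all genes.

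Sterol genes were called higher in 4 of 22 measured cases (18.2%, beside 3.08% of all genes) and lower in 0, with a median of 0.22 beside 0.01 over all genes. INSIG1, which holds the SREBP transcription factors in the endoplasmic reticulum when sterols are plentiful, was at 10.46, 10.04 and 10.10 with EcN, against 9.17, 9.06 and 9.16 with mock. The rise was 2.10-fold (log2 1.07 ± 0.17 SE, adjusted p = 0.0159 by limma). IDI1, an isomerase of isoprenoid synthesis, rose 1.5-fold, STARD4, a sterol carrier, 1.35-fold and ACLY, which makes acetyl-CoA for lipids, 1.26-fold. SREBF1 and SREBF2 had log2 fold changes of -0.18 and 0.04. On the mock arrays at 120 min INSIG1 stood at 9.41, 10.20 and 10.18, within the EcN range at 60 min on B and C.

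**Figure D5:**
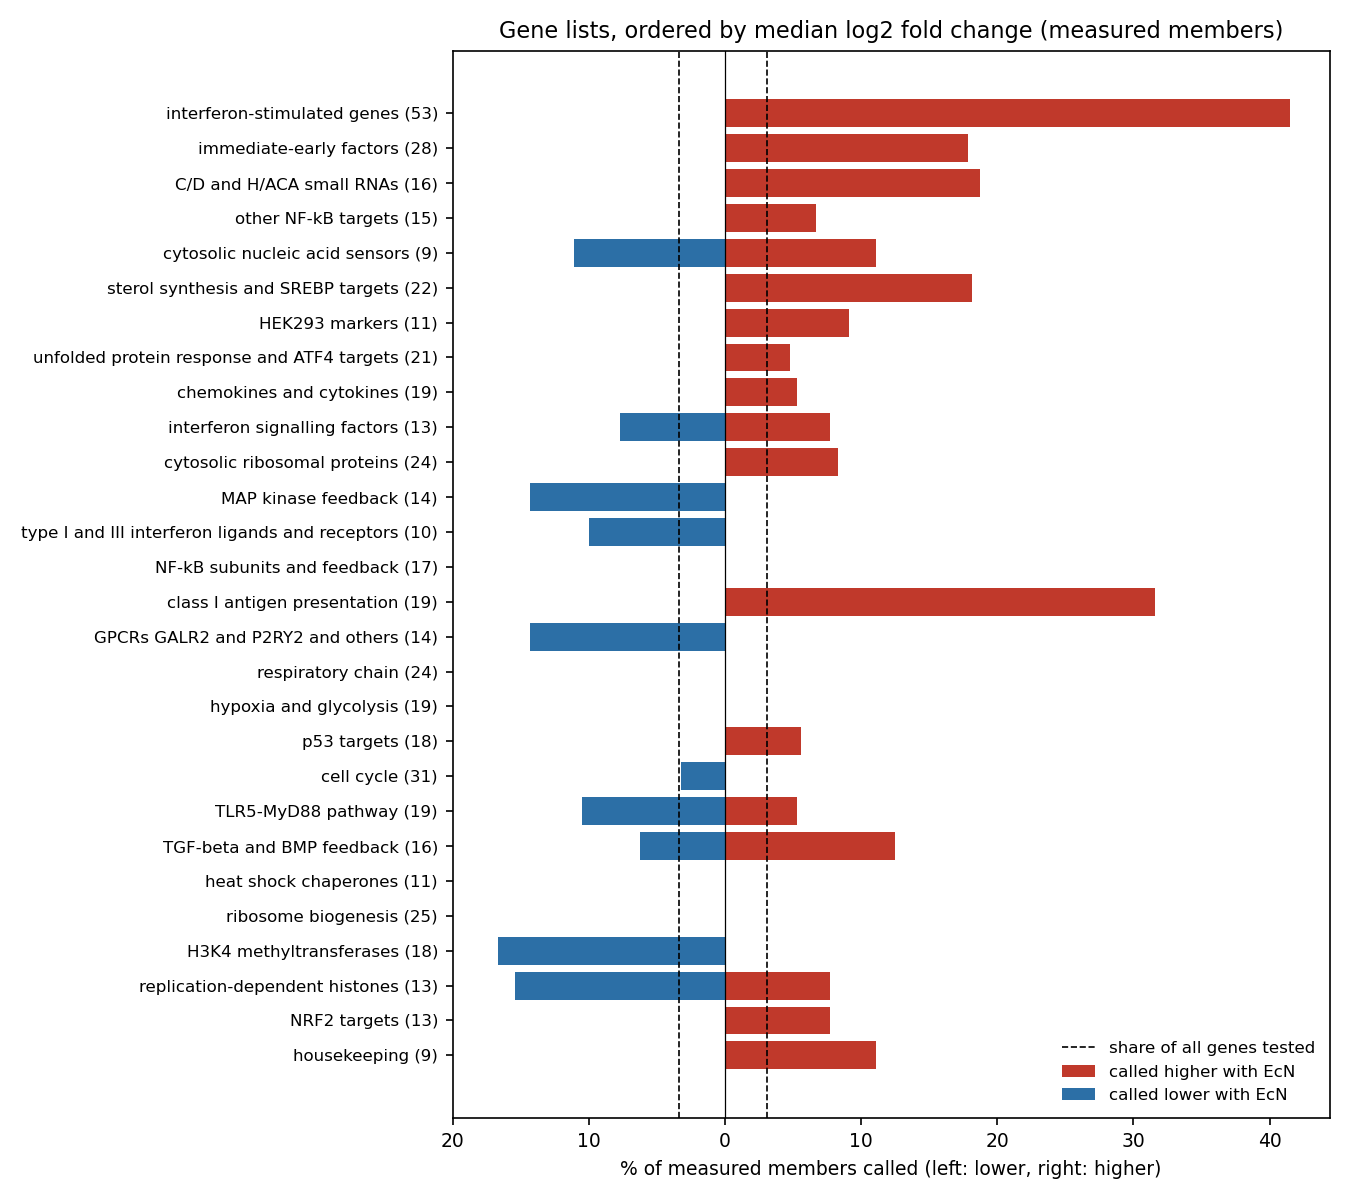
Share of each list's measured members called higher (right, red) and lower (left, blue) with EcN at 60 min, for lists with 9 or more measured members (number in brackets), ordered by median log2 fold change from the highest at the top, with the shares of all genes tested, 3.08% and 3.37%, as dashed lines. The interferon-stimulated list stands first at 41.5%, and the NF-kB list has no bar.

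Small RNAs of the nucleolus and Cajal bodies were among the rises. Of 109 snoRNA genes tested 8 were called higher (7.34%, beside 3.08% of all genes) and 0 lower, and the median log2 fold change was 0.11. SNORD105, a box C/D guide RNA, was at 8.43, 8.29 and 8.25 with EcN, against 7.06, 6.82 and 6.46 with mock (2.91-fold, adjusted p = 0.0159 by limma). SNORD15B was at 8.61, 8.56 and 8.65 with EcN and 7.43, 7.71 and 7.48 with mock, and SCARNA17 at 10.54, 10.33 and 10.71 with EcN and 9.36, 9.76 and 9.29 with mock. SCARNA10 rose 1.54-fold. SCARNA20 went the other way, at 2.43, 2.40 and 3.49 with EcN and 4.49, 4.70 and 3.62 with mock. Some of these RNAs lie inside introns of host genes, and whether the probes read the guide or the host's unspliced RNA was not tested.

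The remaining genes with the largest rises or smallest p-values belong to no list. SLFN5, a Schlafen family gene that interferon induces, was at 7.67, 7.82 and 8.02 with EcN, against 6.67, 6.32 and 6.30 with mock (2.65-fold, adjusted p = 0.0159 by limma). Array A was its lowest EcN array, as for 31.1% of all genes. RAB26, a small GTPase of secretory vesicles, was at 6.74, 7.01 and 7.02 with EcN and 5.70, 5.18 and 5.43 with mock. GALNT12, which starts O-linked sugar chains, was at 6.57, 6.35 and 6.19 with EcN and 5.26, 5.14 and 4.69 with mock. These 3 genes had no overlap between the 60 min groups, as for 31.9% of all genes, and rose at least 2.53-fold each. Mock arrays A, B and C at 120 min had SLFN5 at 6.55, 7.38 and 7.93 and RAB26 at 5.19, 6.40 and 6.72. GALNT12 stood at 4.68, 6.35 and 6.74 on those arrays. ACOT2, a mitochondrial thioesterase, rose 2.24-fold, the ubiquitin ligase RNF122 2.02-fold, KLHDC9 1.80-fold, the disulfide isomerase PDIA5 1.75-fold, the ciliary protein OFD1 1.48-fold, PLCXD1 1.47-fold and the pseudogene CATSPER2P1 2.43-fold.

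GALR2, a receptor for the neuropeptide galanin, had the largest fall of all called genes. It was at 4.86, 4.71 and 5.24 on EcN arrays A, B and C, against 6.63, 6.45 and 6.57 on the mock arrays, 3.07-fold lower (log2 -1.62 ± 0.22 SE, adjusted p = 0.00877 by limma). P2RY2, a receptor for extracellular ATP and UTP, had the smallest p, at 4.34, 4.32 and 4.43 with EcN and 5.06, 5.19 and 5.17 with mock (log2 -0.78 ± 0.10 SE, adjusted p = 0.00877 by limma). They were the 2 called among 14 measured G protein-coupled receptors (14.3%, beside 6.45% of all genes), a list built around this pair. On the mock arrays at 120 min GALR2 stood at 6.07, 5.59 and 4.94 and P2RY2 at 4.81, 4.54 and 4.58, between both 60 min groups or, for GALR2 on array C, within the EcN range.

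Some writers of histone H3K4 methylation were among the falls. Of 18 measured H3K4 methyltransferase complex members 3 were called lower (16.7%, beside 3.37% of all genes) and 0 higher. The list was chosen with earlier results of these data known, so this share is no independent result. Its median log2 fold change was -0.10 beside 0.01 over all genes, with 8 members above 0 and 10 below. SETD1B, a catalytic subunit, was at 7.10, 7.53 and 7.32 with EcN, against 8.40, 8.46 and 8.48 with mock (log2 -1.13 ± 0.19 SE, adjusted p = 0.0159 by limma). SETD1A, its paralog, was at 7.37, 7.31 and 7.45 with EcN and 7.84, 8.18 and 8.07 with mock. HCFC1, a shared cofactor, was at 10.46, 10.45 and 10.39 with EcN and 10.96, 10.97 and 10.95 with mock, with less than 0.1 of spread in either group. Mock arrays A, B and C at 120 min had SETD1B at 8.22, 7.92 and 7.18 and SETD1A at 7.89, 7.68 and 7.36. HCFC1 stood at 10.98, 10.85 and 10.49 on those arrays. The common core subunits WDR5, RBBP5, ASH2L and DPY30 had log2 fold changes of 0.01, 0.13, 0.35 and 0.07 and none was called. BICRA, a subunit of a SWI/SNF remodeller, was at 5.76, 5.90 and 6.13 with EcN and 6.79, 7.08 and 7.10 with mock.

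SMAD7, the inhibitor that TGF-beta induces to limit its own signal, fell to 7.05, 7.05 and 7.29 with EcN, against 7.89, 8.33 and 8.23 with mock (2.03-fold lower, adjusted p = 0.0197 by limma). SMURF1, a ubiquitin ligase that works with SMAD7, rose 1.63-fold, and LTBP1, which stores latent TGF-beta in the matrix, rose 1.36-fold. These were the 3 called of 16 measured genes of TGF-beta and BMP feedback (18.8%, beside 6.45% of all genes). On the mock arrays at 120 min SMAD7 stood at 8.03, 7.39 and 7.20.

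Histone genes split. H2BC12 was at 9.04, 9.36 and 9.16 with EcN and 9.80, 10.29 and 10.73 with mock, and H2BC14 at 5.36, 6.50 and 6.08 with EcN and 7.11, 7.27 and 7.27 with mock, while H2AC20 rose 1.30-fold. They were the 3 called of 13 measured (23.1%, beside 6.45% of all genes) among 35 listed replication-dependent histone genes. Members of this list are near-identical in sequence, so signal may be shared. Of 31 cell cycle genes BUB1 was the 1 called (3.23%, beside 6.45% of all genes), 1.33-fold lower.

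WIPF2, which binds the actin regulator WASP, was at 6.47, 6.49 and 6.36 with EcN, against 7.39, 7.29 and 7.44 with mock (log2 -0.94 ± 0.13 SE, adjusted p = 0.00877 by limma). OTUD6B, a deubiquitinase, was at 5.39, 5.06 and 5.28 with EcN and 6.15, 6.16 and 5.99 with mock (adjusted p = 0.00877 by limma). At 120 min the mock arrays had WIPF2 at 7.07, 7.09 and 6.47 and OTUD6B at 5.90, 5.65 and 5.46. LYSMD3 fell by 0.90, UBXN8 by 0.81, the phosphatase gene UBLCP1 by 0.76 and CENATAC, of the minor spliceosome, by 0.75 on the log2 scale. UBALD1 fell by 1.02. The genes and pseudogenes STAG3L2, SH3GL1P1, LOC100128340, RNA5SP496, FAM86C1P and CHORDC1P4 fell 1.74-fold to 2.50-fold, and several have close copies elsewhere in the genome.

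Rows named for microRNAs were called lower in 10 of 326 cases (3.07%, near the 3.37% of all genes) and higher in 1 (0.307%, beside 3.08%), so falls were no more frequent among them than among all genes. MIR4653 was at 3.77, 4.15 and 4.20 with EcN, against 5.33, 5.95 and 5.65 with mock (3.03-fold lower, adjusted p = 0.0365 by limma). MIR647 was at 3.87, 3.77 and 3.94 with EcN and 4.69, 6.04 and 5.12 with mock, and MIR4677 at 3.85, 4.96 and 4.33 with EcN and 5.24, 5.55 and 5.42 with mock. Each row is a transcript cluster on an array of total RNA, so its level is not that of a mature arm. The mature sequences of the 3, from RefSeq on GRCh38.p14 with the seed (bases 2 to 8) in capitals, show that no seed was shared.
hsa-miR-4653-3p: uGGAGUUAaggguugcuuggaga
hsa-miR-4653-5p: uCUCUGAGcaaggcuuaacacc
hsa-miR-647: gUGGCUGCacucacuuccuuc
hsa-miR-4677-3p: uCUGUGAGaccaaagaacuacu
hsa-miR-4677-5p: uUGUUCUUuggucuuucagcca

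In several other programmes the share of genes called lay near the 6.45% of all genes or at 0. The unfolded protein response and ATF4 targets had 1 call in 21 (4.76%), PHGDH, of serine synthesis, 1.35-fold higher. NRF2 targets had TXN, thioredoxin, higher 1.62-fold as 1 of 13 (7.69%), and cytosolic ribosomal proteins had RPS6 (1.30-fold) and RPS15A (1.66-fold) higher as 2 of 24 (8.33%). The p53 targets had GADD45A as 1 of 18 (5.56%), while GDF15, at 6.74, 7.43 and 6.89 with EcN and 6.17, 5.85 and 6.49 with mock, was not called (adjusted p = 0.0589 by limma). Calls by limma numbered 0 among 11 heat shock chaperones (2 at an unadjusted p under 0.05), 19 hypoxia and glycolysis genes (2) and 25 ribosome biogenesis factors (2). They also numbered 0 among 24 respiratory chain subunits (5) and 6 genes of a wider list around the NAIP-NLRC4 inflammasome (2). The largest differences of these lists included HSP90AB1 at log2 -0.52 ± 0.18 (SE, adjusted p = 0.088 by limma), PFKFB4 at 0.53, RRS1 at -0.37, NDUFA1 at 0.36 and NLRC5 at 0.55. NLRC4 itself was below the filter.

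Among marker and housekeeping genes KRT18, a keratin of HEK293 cells, rose 1.36-fold, CD68, a lysosomal protein also used as a macrophage marker, rose 1.31-fold, and LGR5 fell by 0.59 on the log2 scale. Calls by limma numbered 0 among 4 fibroblast markers and 2 endothelial ones, of which VWF alone had an unadjusted p under 0.05, with COL1A1 at 4.60, 4.91 and 4.98 with EcN and 4.63, 4.97 and 4.36 with mock. ACTB stood at 7.64, 7.08 and 7.18 with EcN and 7.54, 7.50 and 7.43 with mock (adjusted p = 0.69 by limma). GAPDH was lower on all 3 EcN arrays, at 7.27, 7.47 and 7.50 against 7.76, 7.86 and 7.69 with mock, and was not called (log2 -0.36 ± 0.11 SE, adjusted p = 0.0711 by limma).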

How the data were processed

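Total RNA of 18 samples was hybridised to 1 array each. The deposited values are log2 levels normalised by the authors with RMA in oligo 1.30.0, per the submitters' processing notes; a genome build was not found in them. Arrays were grouped by title; for the ST arrays the description field says mock while title, source and treatment say ST, and the titles were followed. Symbols come from the platform annotation, with 655 updated through RefSeq tables; 1842 clusters with several symbols and 27904 without a listed one were not used. Clusters above the array median on at least 3 of 18 arrays were kept. For the 399 genes with several such clusters, the cluster with the highest mean over all arrays was used and the others were left out. limma 3.58.1 (R 4.3.3) fitted 6 group means over all 18 arrays with eBayes. The fit was tried on simulated data with independent noise for each gene and array. That trial held no departing arrays, so it does not bear on the dependence on single arrays. The members and the gene lists were chosen with earlier results of these data known. Genes named are those with the 15 highest and 15 lowest fold changes and 10 smallest p-values per direction among calls, up to 8 called members per list (at least 3 members by size), a small panel and the 10 genes with the largest array C or array A departures; 1 gene of the last kind is not reported. ATF3, FOSB, MYC, MYD88, USP18, PML, ZC3HAV1 and the SREBP, proteasome and WDR5-type subunits given by value were chosen after their values were seen. Letters were not taken as pairs: deviations of same-letter EcN and mock arrays at 60 min correlated at -0.050, -0.026 and -0.032, and in 0 of 15 pairs of groups were all 3 letters over 0.1. Between flagellin groups the same-letter correlations were all positive. Alternatives are given in the closing section. Promoter and microRNA sequences are from RefSeq tables (GRCh38.p14).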

Additional observations from a re-analysis of the deposited data

How the results depend on the processing

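The 1039 calls became 1129 with arrays centred on their median (35.6% of them higher, against 47.7%), 946 with quantile normalisation repeated, 741 with no filter on low values and 973 from the 6 compared arrays alone. They became 1580 from the arrays at 60 min alone, 1505 with trended robust variances and 2176 with array weights. With the replicate block 761 genes were called (25 of the interferon-stimulated list), and 1 gene, EGR1, for the effect at 60 min minus that at 120 min. Same-letter deviations were correlated over 0.1 for all 3 letters in 0 of 15 pairs of groups, so the letters were not taken as pairs, though NF-kB targets were high on every flagellin array lettered C. Between flagellin groups these correlations were all positive, from 0.014 to 0.273. In pairs with a mock group they ran from -0.237 to 0.112. Array weights gave 7 calls for that difference. For EcN over ST at 60 min 1 gene, CHST9, was called under array weights, trended robust variances and a filter on all arrays. Leaving out 1 array gave 0 to 1856 calls for EcN over mock, 0 to 27 for the interferon-stimulated list, 0 to 556 for the difference between times and 0 to 1 for EcN over ST. Without mock array A at 120 min 1856 genes were called and without mock C at 120 min 1615; without any 1 of the other arrays outside the compared 6 the count lay between 780 and 1034. Leaving out all arrays lettered C left 14 calls and 0 of the interferon-stimulated list. Leaving out mock array A at 120 min as well gave 494 calls, 3 of that list and 23 for the difference between times. Leaving out the flagellin arrays lettered C and mock A at 120 min gave 993 calls, 10 of that list and 213 for the difference between times.

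Without the arrays lettered C, with or without mock array A at 120 min, the log2 fold change turned negative for NFKBIZ (-0.17), COL1A1 (-0.046), NFKBIA (-0.43), TNFAIP3 (-0.49), TNF (-0.21), CXCL1 (-0.11) and RNY3P2 (-0.53). Without the flagellin arrays lettered C and mock A at 120 min it was -0.14 for NFKBIZ, -0.39 for NFKBIA, -0.49 for TNFAIP3 (adjusted p = 0.0403 by limma, so called lower there), -0.088 for TNF, -0.04 for CXCL1 and -0.51 for RNY3P2. Over single left-out arrays the log2 fold change ran between -0.14 and 1.13 for NFKBIZ, -0.39 and 0.55 for NFKBIA, -0.49 and 0.63 for TNFAIP3, -0.088 and 0.42 for TNF, -0.04 and 1.29 for CXCL1, -0.51 and 0.55 for RNY3P2, -0.067 and 0.71 for MTVR2, and -0.70 and 0.15 for MIR4756. None of these genes was called with all arrays. Of the 149 named genes 87 were called, and none of them changed direction under any of the 31 alternatives that gave it a value. Of the 87, 6 had none under the filter on all 18 arrays. For called genes whose groups do not overlap, leaving out arrays could not change the direction. The causes were not tested.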

Other observations

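Families defined by symbol, chosen after their values were seen, differed in their balance of calls. Of 205 tested TMEM genes, a name given to membrane proteins of mixed function, 4 were called higher and 16 lower (7.80%, beside 3.37% of all genes). Of 443 ZNF genes, most of them zinc finger transcription factors, 7 were higher and 19 lower (4.29%, near the 3.37% of all genes). Of 22 NUP genes, components of the nuclear pore, NUP188, NUP214 and NUP98 were lower (13.6%, beside 3.37% of all genes) and 0 were higher. NUP98 stood at 8.68, 8.58 and 8.71 with EcN, against 9.26, 9.27 and 9.33 with mock. Of 39 CEP genes, centrosomal proteins, CEP112, CEP120, CEP55 and CEP63 were higher (10.3%, beside 3.08% of all genes) and 0 were lower. RNF213, a giant ubiquitin ligase that interferon induces and that was on no list, stood at 7.82, 8.15 and 8.04 with EcN, against 7.55, 7.08 and 6.99 with mock (adjusted p = 0.0438 by limma).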
